A study of Mus musculus with 8 samples.

Results

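The genes described here are 10 transcripts of pluripotent and germ cells: Dppa2, Dppa3, Dppa4, Dppa5a, Morc1, Sycp1, Stk31, Dazl, Ddx4 and Mael. They were taken by symbol from the 37305 gene rows of the deposited table, and each was found on 1 row. RNA sequencing had been done on mouse induced pluripotent stem (iPS) cells, that is, cells reprogrammed to a state like that of embryonic stem cells. The mutator group held 5 libraries of lines carrying the Polg D257A substitution on both alleles. Polg is the polymerase that copies mitochondrial DNA, and this change is known to abolish its proofreading. The wild-type group held 3 libraries of lines from littermate embryos. All lines had been kept on arrested feeder cells in embryonic stem cell medium with LIF and passaged once on gelatin before RNA was taken, per the labels' protocols.

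Dppa2 and Dppa4 are DNA-binding proteins of the early embryo and of pluripotent cells that act as a pair, keep a set of developmental promoters free of DNA methylation, and promote the genes of zygotic genome activation. Many germline genes, Dazl and Ddx4 among them, have CpG-rich promoters that are silenced in somatic cells by DNA methylation and in pluripotent cells also by the polycomb complex PRC1.6. Low levels of such transcripts are therefore common in pluripotent cells, which do not enter meiosis. The comparison asks how these transcripts differed between mutator and wild-type iPS cells.

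Values are FPKM (fragments mapped to a transcript, scaled to its length and to the mapped fragments of the library), as deposited. Log2 changes are mutator minus wild type on log2(FPKM + 1), which understates the change of low genes, with limma's standard error (SE) and a Benjamini-Hochberg adjusted p over the 11949 genes whose mean reached 1 FPKM. A gene was called at an adjusted p below 0.05. The difference between mutator replicates 1 and 2 did not exceed fragment sampling (0.874 times the squared difference expected, whereas the 12 other pairs of same-group libraries gave 3.59 to 16.6 times), and their column headers share a code. They were averaged and counted as 1 sample, which left 4 mutator and 3 wild-type samples, although 5 independent lines were described. The wild-type headers also share a number, and nothing states that these lines came from separate embryos, so the p-values measure the spread between these samples only, and embryo and genotype cannot be told apart. Polg, whose substitution does not remove its transcript, averaged 9.48 FPKM over wild-type samples and 10.2 FPKM over mutator samples, and so does not check the labels. The pluripotency factor Pou5f1 was high in both groups, at 263 ± 26.4 FPKM in wild-type and 148 ± 36.2 FPKM in mutator samples (adjusted p = 0.072, limma), while the sperm chromatin genes Prm2 and Tnp2 were listed at 0 in every library. Tnp1, a further sperm chromatin gene, was not absent: its mean reached 1 FPKM, and it did not pass the test (log2 change -0.17).

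Markers of other cells moved with the groups. All 20 tested feeder fibroblast markers had a log2 change above 0 (median 0.68, 1 called), none was at 0, and their summed level was 176.6 to 222.5 FPKM in wild-type samples. It was 505.3 FPKM in the mean of mutator replicates 1 and 2, and 500.7, 232.1 and 300.8 FPKM in mutator replicates 3, 4 and 5. The summed primitive endoderm markers were 56.6 to 66.9 FPKM in wild-type and 68.6 to 423.4 FPKM in mutator samples. Of 10 tested endoderm markers none was called by limma, with 6 higher at an unadjusted p below 0.05. Of 7 tested epiblast-like markers and 5 tested spermatogonial and spermatocyte markers none was called either, with 1 lower and 2 higher at an unadjusted p below 0.05. In bulk RNA, fewer cells of a type and less RNA per cell cannot be told apart. Y-linked transcripts summed to 69.2 to 146 FPKM in wild-type samples and to 91.5 and 76.9 FPKM in mutator replicates 3 and 5, but to 6.36 FPKM in the mean of mutator replicates 1 and 2 and 1.66 FPKM in replicate 4. Xist was 2.02 to 3.56 FPKM in wild-type and 2.66 to 5.30 FPKM in mutator libraries. Fits with these levels as covariates, and without the samples that stood apart, are given at the end.

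Of the 10 genes, 4 fell in mutator cells (Dppa2, Morc1, Sycp1 and Stk31), none rose (0 also at an unadjusted p below 0.05, limma) and 6 did not pass the test. Among all genes tested, 4.54% were called lower and 2.95% higher. At an unadjusted p below 0.05, 5 of the 10 were lower, against 16.8% of all genes, and the same 5 (Dppa4 in addition) had every mutator value below every wild-type value, against 16.2% of all genes. The log2 change was below 0 for all 10, where it was below 0 for 52.4% of all genes, and its median was -0.57 beside -0.03. The 10 genes were chosen with earlier results of these data known, so these shares describe them and are no test of enrichment. All 10 passed the filter on low values, Sycp1 only through its wild-type level. By exact two-sided permutation over samples, each of the 5 genes whose groups did not overlap gave p = 0.057, the smallest that 4 against 3 samples allow.

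In wild-type cells Dppa5a stood highest, at 215 FPKM on average. Dppa3 (40.01 FPKM), Dppa4 (33.9 FPKM) and Dppa2 (25.2 FPKM) came next, and Dppa3 spanned a range that included all values of Dppa2. Morc1 lay at 7.87 FPKM, and Mael (4.21 FPKM) and Ddx4 (4.17 FPKM) overlapped below it. Stk31 (2.59 FPKM) overlapped with Sycp1 (2.37 FPKM), and Sycp1 with Dazl (1.46 FPKM). The genes that fell were thus found at both high and low levels.

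**Figure D1:**
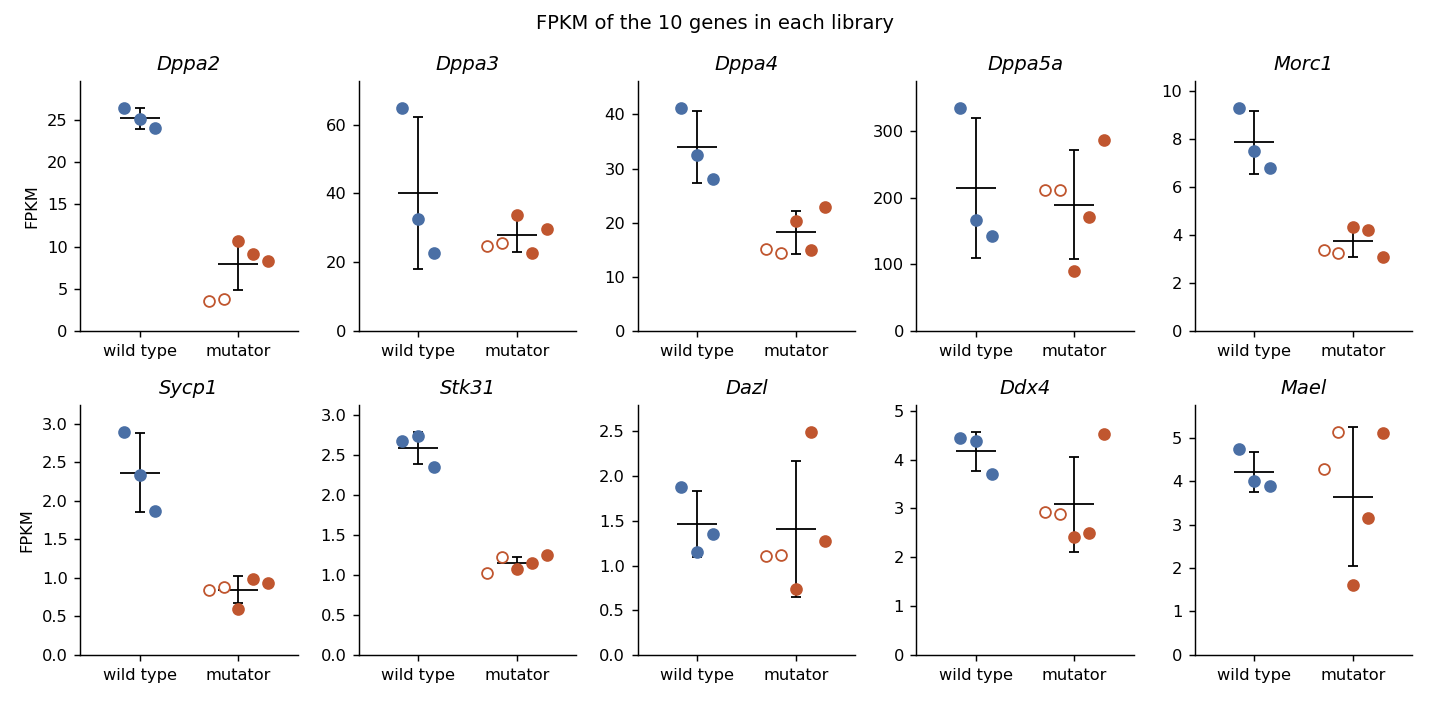
FPKM of each of the 10 genes (linear axis from 0, one panel per gene) in the 3 wild-type and 5 mutator libraries. Points are libraries, open circles are mutator replicates 1 and 2, and the bars are the mean ± SD over samples with that pair averaged (n = 3 and n = 4). For Dppa2, Dppa4, Morc1, Sycp1 and Stk31 every mutator point lies below every wild-type point, and for the other 5 genes the groups overlap.

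Dppa2 (ENSMUSG00000072419, chr16:48303908-48319723, plus strand, GENCODE M21 on GRCm38, as for all gene positions here) encodes a SAP-domain protein. It measured 26.4, 25.1 and 24.0 FPKM in wild-type replicates 1 to 3. In mutator replicates 1 to 5 it measured 3.55, 3.84, 10.7, 9.13 and 8.24 FPKM. The wild-type libraries lay close together, and every mutator library was below the lowest of them, with replicates 1 and 2 lowest. The means were 25.2 ± 1.21 FPKM (SD, n = 3) and 7.94 ± 3.01 FPKM (SD, n = 4), 3.17-fold lower in mutator cells. The log2 change was -1.63 (SE 0.30, 95% interval -2.31 to -0.94, limma adjusted p = 0.031), lower in 4 of 4 mutator samples.

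Dppa4 (ENSMUSG00000058550, chr16:48283733-48294237, plus strand), the partner of Dppa2, measured 41.2, 32.6 and 28.1 FPKM in wild-type replicates 1 to 3. Mutator replicates 1 to 5 held 15.1, 14.5, 20.4, 15.1 and 22.8 FPKM. The groups did not overlap, but wild-type replicate 1 stood well above the other two. The means were 33.9 ± 6.66 and 18.3 ± 3.98 FPKM, with a log2 change of -0.86 (SE 0.22, 95% interval -1.37 to -0.36) and a limma adjusted p of 0.052, which missed the threshold.

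Morc1 (ENSMUSG00000022652, chr16:48431237-48630900, plus strand) encodes an ATPase needed to silence transposons in the mouse male germline. Its values were 9.31, 7.498 and 6.80 FPKM in wild-type replicates 1 to 3, and 3.37, 3.26, 4.36, 4.21 and 3.09 FPKM in mutator replicates 1 to 5. The mutator libraries were close together and all were below the wild-type libraries. The means of 7.87 ± 1.30 and 3.74 ± 0.632 FPKM differed 2.10-fold (log2 change -0.90, SE 0.17, limma adjusted p = 0.031).

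Dppa4, Dppa2 and Morc1 lie in this order and on the same strand of chromosome 16. The gap from the end of Dppa4 to the start of Dppa2 is 9.67 kb, and that from the end of Dppa2 to the start of Morc1 is 111.5 kb. Of the 10 protein-coding genes starting within 1 Mb of them, 5 had a mean of at least 1 FPKM, and the other 5 never exceeded 0.222 FPKM in any library. Both further expressed genes had mutator values below all wild-type values, as did 16.2% of all genes. They lie head to head, Dzip3 ending at 48994165 on the minus strand and C330027C09Rik starting at 48994185 on the plus strand. They are therefore not independent neighbours. C330027C09Rik fell from 40.04 ± 3.30 to 22.2 ± 3.82 FPKM (log2 change -0.84, SE 0.19, limma adjusted p = 0.040). Dzip3, a ubiquitin ligase gene, was at 7.63 ± 0.484 and 5.68 ± 0.820 FPKM (log2 change -0.38, limma adjusted p = 0.147). The window was drawn around Dppa2, Dppa4 and Morc1, so C330027C09Rik is the 1 further call among 2 further genes, where 4.54% of all genes were called lower. Its call was lost without wild-type replicate 1 (adjusted p = 0.106), 2 (0.149) or 3 (0.111), the mean of mutator replicates 1 and 2 (0.0773) or mutator replicate 4 (0.0707), in the same limma fit.

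**Figure D2:**
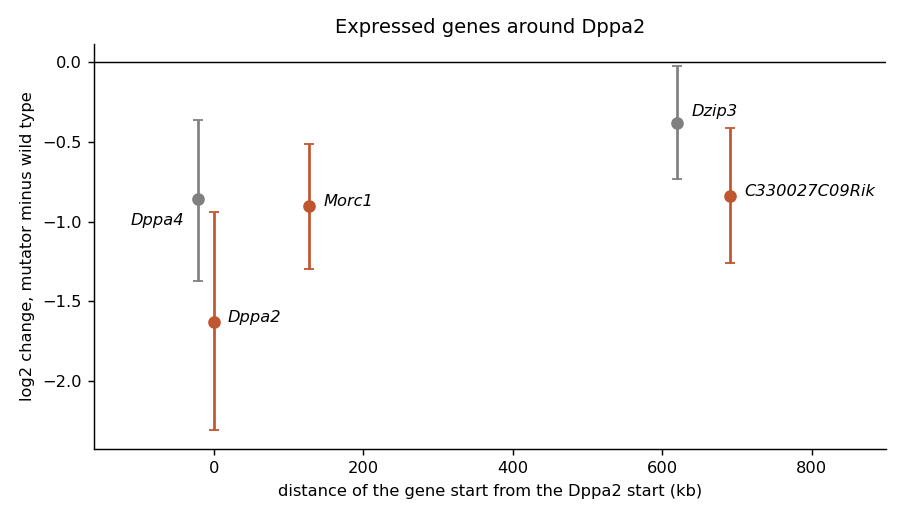
Log2 change (mutator minus wild type, 95% interval) of the 5 expressed genes against the distance of their start from the start of Dppa2 in kb. Orange marks genes called at an adjusted p below 0.05 and grey the others. All 5 points lie below 0, and Dppa2 at -1.63 lies lowest.

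Ratios within a sample do not depend on how the libraries were scaled, and those given here were chosen after the values were seen. Dppa2 over Dppa4 was 0.641 to 0.854 in wild-type and 0.250 to 0.606 in mutator samples, without overlap. Dppa2 over Morc1 was 2.84 to 3.53 and 1.11 to 2.67, also without overlap, whereas Morc1 over Dppa4 was 0.226 to 0.242 and 0.135 to 0.279 (exact permutation p = 0.629). Dppa2 was thus lower relative to both of its neighbours in 4 of 4 mutator samples (exact permutation p = 0.057 for each ratio). Set against Pou5f1, Dppa2 remained lower without overlap (0.0908 to 0.105 in wild-type, 0.0359 to 0.0775 in mutator samples). Dppa4 over Pou5f1 overlapped between the groups, at 0.109 to 0.142 and 0.0927 to 0.148 (exact permutation p = 0.914), as did Morc1 over Pou5f1 (p = 0.571), Sycp1 over Pou5f1 (p = 0.114) and Stk31 over Pou5f1 (p = 0.229), all by exact permutation. With 10 ratios compared and 0.057 the smallest p possible, none could pass an adjusted threshold of 0.05.

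Dppa3 and Dppa5a share the Dppa name with Dppa2 and Dppa4 but lie on other chromosomes. Dppa3 (Stella, ENSMUSG00000046323, chr6:122626410-122630272, plus strand) protects methylation marks of the maternal genome in the fertilised mouse egg. It measured 64.9, 32.6 and 22.6 FPKM in wild-type replicates 1 to 3 and 24.8, 25.6, 33.7, 22.6 and 29.8 FPKM in mutator replicates 1 to 5. Wild-type replicate 1 stood apart, and the other wild-type libraries lay among the mutator ones. The log2 change was -0.39 (95% interval -1.16 to 0.38, limma adjusted p = 0.453), so a fall as large as that of Morc1 lies within the interval.

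Dppa5a (ENSMUSG00000060461, chr9:78367052-78368177, minus strand), an RNA-binding KH-domain protein, measured 334.7, 166.2 and 143.1 FPKM in wild-type replicates 1 to 3. In mutator replicates 1 to 5 it measured 211.4, 212.1, 90.1, 170.6 and 286.5 FPKM, within the wild-type range except in replicate 3. The log2 change was -0.19 (95% interval -1.20 to 0.82, limma adjusted p = 0.794). Among the genes within 100 kb of either, Nanog, next to Dppa3, was at 55.6 and 50.2 FPKM (adjusted p = 0.708), and Ooep, next to Dppa5a, at 24.6 and 25.2 FPKM (adjusted p = 0.872). Gdf3, 6.67 and 3.85 FPKM, and the helicase gene Ddx43, 2.57 and 1.48 FPKM, had mutator values below all wild-type values, as did 16.2% of all genes. Their adjusted p were 0.097 and 0.064 in the same limma fit.

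**Figure D3:**
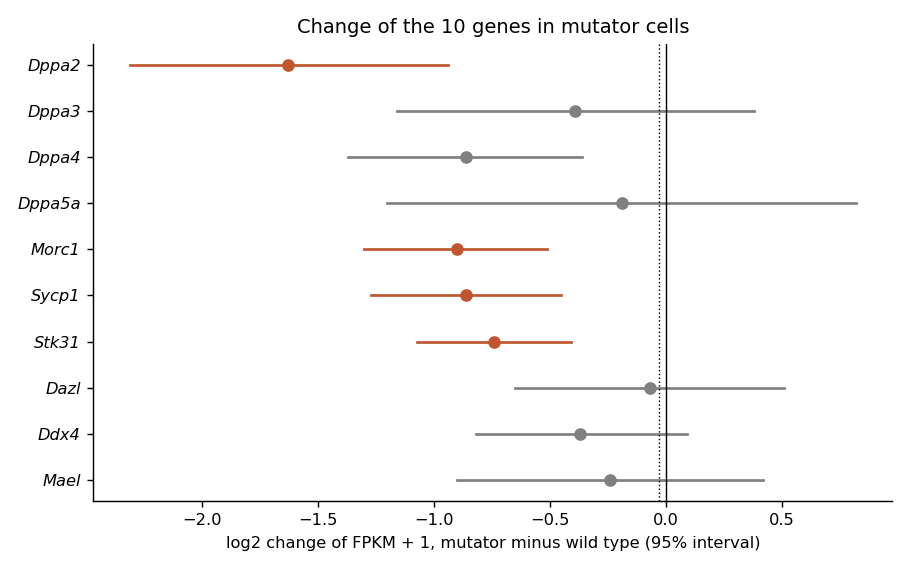
Log2 change of FPKM + 1, mutator minus wild type, of the 10 genes with the 95% interval from limma. Orange marks the 4 genes called at an adjusted p below 0.05, grey the other 6, and the dotted line the median of all tested genes (-0.03). The intervals of Dppa3, Dppa5a, Dazl, Ddx4 and Mael include 0.

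Sycp1 (ENSMUSG00000027855, chr3:102818499-102936100, minus strand) encodes the transverse filament of the synaptonemal complex, which holds paired meiotic chromosomes together. It measured 2.90, 2.33 and 1.87 FPKM in wild-type replicates 1 to 3, and 0.843, 0.881, 0.596, 0.988 and 0.938 FPKM in mutator replicates 1 to 5. All mutator libraries were below 1 FPKM and all wild-type libraries above it. The means were 2.37 ± 0.517 and 0.846 ± 0.174 FPKM, 2.80-fold lower in mutator cells (log2 change -0.86, SE 0.18, limma adjusted p = 0.036).

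Stk31 (ENSMUSG00000023403, chr6:49395604-49469501, plus strand) encodes a Tudor-domain protein with a kinase-like domain, found in mouse male germ cells. It measured 2.68, 2.73 and 2.35 FPKM in wild-type replicates 1 to 3, and 1.02, 1.22, 1.07, 1.15 and 1.25 FPKM in mutator replicates 1 to 5. Both groups were tight and well separated. The means of 2.59 ± 0.205 and 1.15 ± 0.0762 FPKM differed 2.26-fold (log2 change -0.74, SE 0.14, limma adjusted p = 0.032).

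The germ cell RNA regulators Dazl, Ddx4 and Mael did not pass the test. Dazl (ENSMUSG00000010592, chr17:50279395-50293636, minus strand), which binds germ cell mRNAs and promotes their translation, measured 1.88, 1.16 and 1.36 FPKM in wild-type replicates 1 to 3 and 1.11, 1.122, 0.739, 2.50 and 1.28 FPKM in mutator replicates 1 to 5. Mutator replicate 4 was the highest of all libraries and replicate 3 the lowest (log2 change -0.07, 95% interval -0.65 to 0.51, limma adjusted p = 0.87). Ddx4, the mouse Vasa helicase (ENSMUSG00000021758, chr13:112598333-112652475, minus strand), measured 4.43, 4.37 and 3.71 FPKM in wild-type replicates 1 to 3 and 2.92, 2.89, 2.41, 2.50 and 4.51 FPKM in mutator replicates 1 to 5. Only mutator replicate 5 reached the wild-type values (log2 change -0.37, 95% interval -0.82 to 0.09, limma adjusted p = 0.244). Mael, a piRNA pathway protein that represses transposons (ENSMUSG00000040629, chr1:166201201-166238747, minus strand), measured 4.74, 4.0002 and 3.89 FPKM in wild-type replicates 1 to 3 and 4.27, 5.14, 1.602, 3.16 and 5.10 FPKM in mutator replicates 1 to 5. Its mutator libraries lay on both sides of the wild-type ones (log2 change -0.24, 95% interval -0.90 to 0.42, limma adjusted p = 0.602).

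RefSeq promoter windows (GRCm38.p6, 250 bases before to 50 after the start) were matched for 5 of the 10 genes, all of them germline genes. They were searched on both strands for CACGTG, the E-box bound by MAX dimers including the PRC1.6 subunit MGA, and for GCGGGAA, a core recognised by E2F factors including the PRC1.6 subunit E2F6. These motifs do not overlap each other. The windows of Sycp1 and Stk31, the 2 genes that fell, are shown with that of Dazl, which did not pass the test, on the strand of the gene, with CACGTG in capitals:
Sycp1 (chr3:102936051-102936350, minus strand): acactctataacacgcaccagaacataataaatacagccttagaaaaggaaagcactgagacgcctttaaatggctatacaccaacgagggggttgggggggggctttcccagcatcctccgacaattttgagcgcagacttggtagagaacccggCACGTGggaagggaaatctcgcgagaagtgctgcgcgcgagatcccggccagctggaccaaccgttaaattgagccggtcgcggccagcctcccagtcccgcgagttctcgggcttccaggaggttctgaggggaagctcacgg
Stk31 (chr6:49395289-49395588, plus strand): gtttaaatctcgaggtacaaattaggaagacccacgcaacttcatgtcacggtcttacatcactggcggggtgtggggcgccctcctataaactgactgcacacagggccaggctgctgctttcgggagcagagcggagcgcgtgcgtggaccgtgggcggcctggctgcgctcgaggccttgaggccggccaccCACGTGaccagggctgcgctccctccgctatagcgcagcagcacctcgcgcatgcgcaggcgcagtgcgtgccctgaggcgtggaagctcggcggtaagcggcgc
Dazl (chr17:50293571-50293870, minus strand): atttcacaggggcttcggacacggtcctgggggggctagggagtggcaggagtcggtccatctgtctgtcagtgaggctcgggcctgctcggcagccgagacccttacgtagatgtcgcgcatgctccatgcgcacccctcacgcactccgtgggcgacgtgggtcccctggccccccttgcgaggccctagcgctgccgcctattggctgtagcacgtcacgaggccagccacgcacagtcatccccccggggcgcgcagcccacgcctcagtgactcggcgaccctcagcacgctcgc
CACGTG starts 94 bases before the start in Sycp1 and 55 bases before it in the Stk31 window shown, and the Dazl window holds none. A second Stk31 window (chr6:49395354-49395653, plus strand) holds the same site 120 bases before its own start. Of the 5 genes, 4 hold CACGTG (Ddx4 and Mael in addition), where 7.15% of all 32851 windows do. GCGGGAA was found in Ddx4 alone, against 4.60% of all windows. The 5 genes' windows held 21 to 38 CpG each, where the median window held 7 and the upper quartile was 20. Each motif itself holds a CpG, and the shares of all windows are per window, not per gene. The counts of the 5 genes are therefore not like for like with those shares and show no enrichment. Genes with and without a called fall thus both carried CACGTG and CpG-rich windows.

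Other genes of meiosis were compared from lists described by their counts. Of 9 tested genes of the synaptonemal complex and meiotic cohesin, 3 fell, none rose and 6 did not pass, with a median log2 change of -0.37. Besides Sycp1 these were Syce1, at 4.94 ± 0.592 and 1.28 ± 0.425 FPKM (log2 change -1.40, SE 0.19, limma adjusted p = 0.021), and Syce2, at 19.7 ± 2.21 and 10.6 ± 0.930 FPKM (log2 change -0.84, adjusted p = 0.031), which both encode central element proteins. Sycp3, the axial element protein, was higher in mutator cells without overlap, as were 12.4% of all genes, but its adjusted p was 0.084 (2.91 ± 0.510 and 5.17 ± 1.27 FPKM). Sycp1 over Sycp3 was 0.766 to 0.840 in wild-type and 0.142 to 0.205 in mutator samples (exact permutation p = 0.057). Sycp1 over Syce2 overlapped, at 0.0961 to 0.133 and 0.0546 to 0.0988 (exact permutation p = 0.114). Of 8 tested genes of meiotic recombination and entry, 1 fell, the mismatch repair gene Mlh3 (4.90 and 2.91 FPKM, adjusted p = 0.047), and 7 did not pass. That list had 0 calls when any 1 sample was left out. The synaptonemal list had no call without wild-type replicate 1, 2 or 3 or without mutator replicates 1 and 2, 1 call without mutator replicate 4, and 4 without mutator replicate 3.

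Among 11 tested piRNA pathway genes, Stk31 alone was called lower and 10 did not pass. At an unadjusted p below 0.05, 4 were lower, Stk31 included, and 0 higher. The largest fall was that of Tdrd12, at 15.0 ± 4.36 and 6.88 ± 3.16 FPKM without overlap (log2 change -1.07, limma adjusted p = 0.078). Of 9 germ cell RNA-binding proteins, 1 rose, Msi1 (1.30 ± 0.279 and 3.88 ± 1.17 FPKM, log2 change 1.06, limma adjusted p = 0.035), also known from neural stem cells, and 8 did not pass. In that list, 1 was lower and 3 were higher at an unadjusted p below 0.05, Msi1 included. Of 13 primordial germ cell regulators, 1 fell, the interferon-inducible membrane protein gene Ifitm1 (29.3 ± 8.19 and 12.04 ± 3.18 FPKM, log2 change -1.21, adjusted p = 0.035). None of 13 further testis and germline genes passed in limma, and 2 were lower at an unadjusted p below 0.05. The most abundant of these, the X-linked homeobox gene Rhox5, was at 67.7 ± 34.4 and 25.3 ± 10.6 FPKM with overlap (adjusted p = 0.084). Trap1a, the next most abundant, was at 31.3 ± 8.76 and 27.2 ± 8.22 FPKM, also with overlap (limma adjusted p = 0.649). Of 5 tested oocyte genes, 1 fell, Nlrp4f (9.37 ± 2.25 and 3.97 ± 1.40 FPKM, adjusted p = 0.042). Of 16 listed genes of the cleavage-stage programme downstream of Dppa2 and Dppa4 that were found, 12 stayed below 1 FPKM in every library and 1 could be tested. That gene, Zfp809, a KRAB zinc-finger repressor of proviruses and no cleavage-stage marker, fell from 8.28 ± 0.605 to 4.73 ± 0.817 FPKM (limma adjusted p = 0.042). The summed level of the genes found, Zfp809 included, was 8.43 to 9.85 FPKM in wild-type samples. It was 4.09 FPKM in the mean of mutator replicates 1 and 2, and 5.46 and 5.58 FPKM in mutator replicates 3 and 5. In mutator replicate 4 the sum was 13.4 FPKM, of which Zfp809 made up 5.23 FPKM. The rest of that sum, seen in this 1 sample, was not tested. Of 9 tested genes of a mixed list (Tex19.1, Ooep, Dppa3, Dppa5a, neighbours of these and relatives of Morc1), 1 was called higher, Morc4, at 0.946 ± 0.413 and 2.86 ± 0.806 FPKM (log2 change 0.98, adjusted p = 0.042). Morc4 passed the filter on low values only through its mutator level. Every call in these lists was lost without wild-type replicate 1, 2 or 3, without the mean of mutator replicates 1 and 2, or without mutator replicate 4. The oocyte list and the list with Zfp809 had 0 calls without mutator replicate 3 or 5 also, and the primordial germ cell and mixed lists had 0 without mutator replicate 5. Without mutator replicate 3, the piRNA, RNA-binding and mixed lists had 2 calls each.

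Genes that silence germline promoters were compared in the same fit. None of the 15 tested PRC1.6 genes passed in limma, 6 were lower at an unadjusted p below 0.05, and 14 had a log2 change below 0 (median -0.36). Its most abundant members were Cbx1, at 72.8 ± 9.27 and 37.5 ± 10.1 FPKM (limma adjusted p = 0.051), and Mga, at 58.8 ± 2.79 and 50.1 ± 5.00 FPKM (adjusted p = 0.393). Of 19 tested genes of H3K9 and DNA methylation, 3 fell and 16 did not pass (median -0.52). At an unadjusted p below 0.05, 9 of the 19 were lower, these 3 included, and 0 higher. The de novo methyltransferase Dnmt3a was at 39.2 ± 13.4 and 9.11 ± 5.88 FPKM (log2 change -2.13, SE 0.46, adjusted p = 0.037), the chromatin remodeller Hells at 102.5 ± 6.72 and 51.2 ± 11.6 FPKM (adjusted p = 0.041), and the dioxygenase Tet2, which removes methylation, at 23.0 ± 0.927 and 13.2 ± 2.56 FPKM (adjusted p = 0.042). Of 20 pluripotency factors, Nr0b1 fell (28.8 ± 1.47 and 15.4 ± 3.34 FPKM, adjusted p = 0.040), Tbx3 rose (4.06 ± 0.465 and 12.2 ± 5.30 FPKM, adjusted p = 0.039) and 18 did not pass. The pluripotency list had 0 calls without wild-type replicate 1, 2 or 3, the mean of mutator replicates 1 and 2 or mutator replicate 4, 4 without mutator replicate 3 and 1 without mutator replicate 5. The H3K9 and DNA methylation list had no call when wild-type replicate 1, 2 or 3, mutator replicates 1 and 2, mutator replicate 4 or mutator replicate 5 was left out, and 3 without mutator replicate 3.

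**Figure D4:**
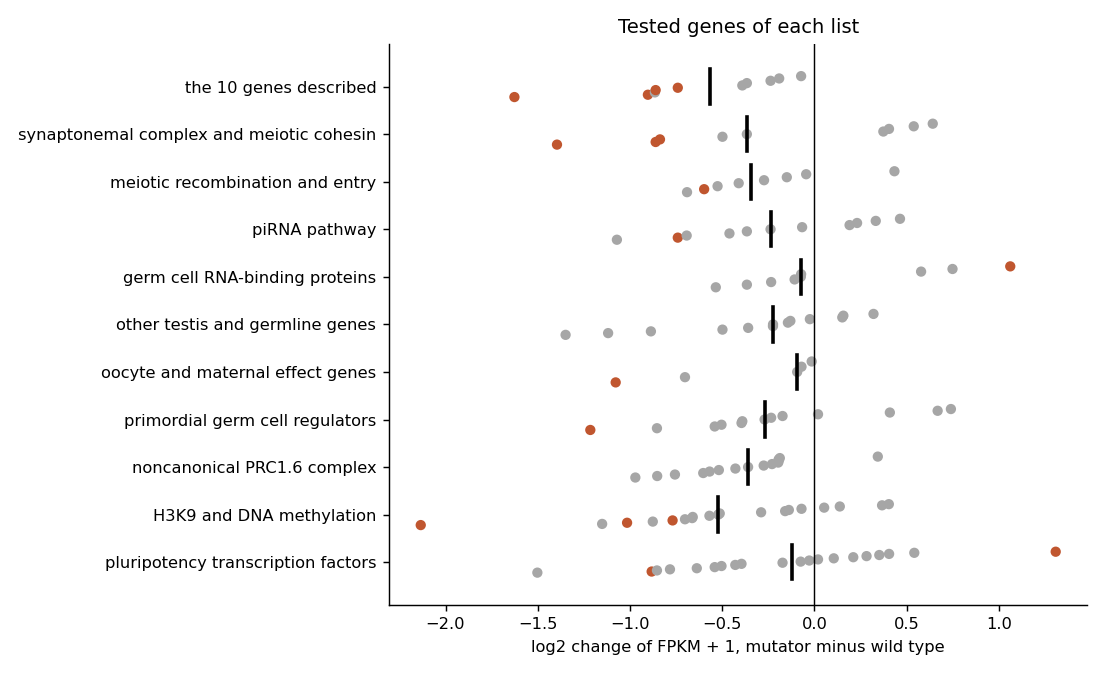
Log2 change (mutator minus wild type, on FPKM + 1) of every tested gene of 11 lists. Each point is a gene, orange where it was called at an adjusted p below 0.05, and the black bar is the list's median. The 10 genes described have a median of -0.57, the H3K9 and DNA methylation list -0.52, and the germ cell RNA-binding proteins -0.07.

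For each gene that fell, the 3 tested genes whose centred profile over the 7 samples was nearest were found by the mean absolute difference in log2(FPKM + 1). For Dppa2 these were the predicted genes Gm8935, Gm8203 and Gm13007, at differences of 0.116, 0.121 and 0.126. Morc1 was nearest to Tmem29 (0.081), Anapc10 (0.087) and Hadhb (0.089). Sycp1 was nearest to Prmt6 (0.050), Zfp955b (0.052) and Slc25a32 (0.053), and Stk31 to Srsf10 (0.037), Ppil4 (0.045) and Etohi1 (0.046). None of the 10 genes was among the 3 nearest to a gene that fell.

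The direction of the 5 non-overlapping genes held in every alternative run, but the calls did not. In mutator replicate 4, whose feeder sum was nearest to the wild-type range, Dppa2 was 9.13, Morc1 4.21, Sycp1 0.988 and Stk31 1.15 FPKM, each below all wild-type libraries. The feeder sum of this sample, 232.1 FPKM, was still above the wild-type range of 176.6 to 222.5 FPKM. Its Y-linked sum of 1.66 FPKM was the lowest of all samples. The cause of its low values was not tested. With the feeder marker mean as a covariate the log2 changes were -1.39 for Dppa2, -0.89 for Morc1, -0.69 for Sycp1 and -0.69 for Stk31, with limma adjusted p of 0.223 to 0.251. With the Y-linked mean as a covariate they were -1.36, -0.87, -0.89 and -0.73, with adjusted p of 0.109 to 0.122. Without the samples high in feeder markers (mutator replicates 1 to 3) the log2 changes were -1.43 for Dppa2, -0.93 for Morc1, -0.77 for Sycp1 and -0.71 for Stk31, with limma adjusted p of 0.068 to 0.105. Without the samples low in Y-linked transcripts (mutator replicates 1, 2 and 4) they were -1.33, -0.91, -0.93 and -0.73, with adjusted p of 0.112 to 0.139. When 1 sample was left out, no member was called without wild-type replicate 1 (Dppa2 adjusted p = 0.0995), wild-type replicate 2 (0.128), wild-type replicate 3 (0.110), the mean of mutator replicates 1 and 2 (0.0575) or mutator replicate 4 (0.0545). All 4 were called without mutator replicate 3 (0.030) or mutator replicate 5 (0.048).

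**Figure D5:**
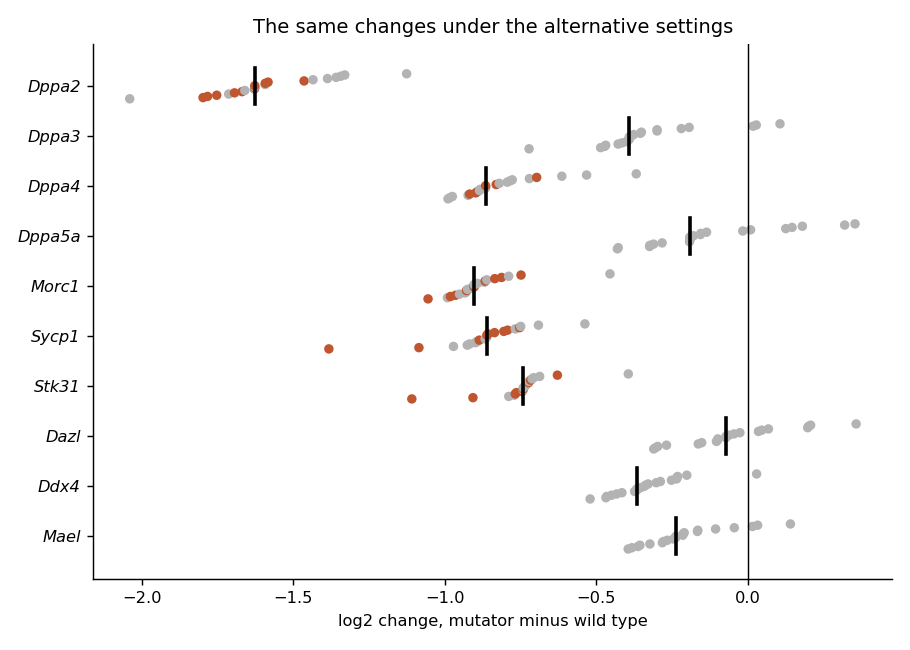
Log2 change (mutator minus wild type) of each of the 10 genes under the alternative settings (22 for Dppa2, 21 for genes left out by the filter at 5 FPKM), 1 point per setting, orange where the adjusted p was below 0.05 and grey elsewhere, with a black bar at the value reported. All points of Dppa2 (-2.04 to -1.13), Dppa4, Morc1, Sycp1 and Stk31 lie below 0, while those of Dppa3, Dppa5a, Dazl, Ddx4 and Mael lie on both sides of it.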

How the data were processed

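Sample titles gave the groups and the replicate numbers. The authors deposited FPKM, 1 column per library and 1 row per gene. STAR and Cufflinks are named in the submitters' processing notes. Versions, genome build, annotation and strandedness are not given in the sources used here, so reads of overlapping or antisense genes, and of near-identical copies, may be shared between rows. The table records no library depth, so no interval from counts is given. Depth was inferred from 28 low genes whose values in mutator replicates 1 and 2 differed 2-fold, taken as 1 against 2 fragments. Their median implied about 19100000 fragments in mutator replicate 1. This depth was assumed for every library in the comparison of libraries with fragment sampling. Each library had 11198 to 11899 genes at 1 FPKM or more.

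From the deposited FPKM, limma 3.58.1 (R 4.3.3; lmFit and eBayes, with the variance trended on the mean) was run on log2(FPKM + 1) of the 11949 genes averaging 1 FPKM or more across the 8 libraries. P-values were adjusted by Benjamini-Hochberg over these genes, at a threshold of 0.05. Rows of 265 symbols found more than once were summed. No count test was used, since FPKM are normalised values. Single values were compared by exact two-sided permutation over samples. The fit was also run on simulated data with the spread of these samples and 200 changed genes of 11930. It recovered 31.5% of them at a log2 change of 1 in size and 89.5% at 2, with 4 and 12 false calls. With 0 genes changed it gave 0 false calls. The number of changed genes in the data is not known, so recovery there may differ. A gene that did not pass is thus not shown to be unchanged. Gene positions were looked up in GENCODE M21 by gene ID, found for 35447 IDs, and are not the authors' own. The same numbers do not pair samples of the groups (the check is with the alternatives). Other steps ran in Python 3.11.15 with SciPy 1.17.1, numpy 2.4.6, pandas 2.3.3 and matplotlib 3.10.9.

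The 10 genes and the gene lists were chosen with earlier results of these data known. The genes named are the 10, up to 4 called genes with the smallest p of each list or up to 2 with the highest mean where none was called, the expressed genes around Dppa2, and the 3 nearest profiles. Sycp3, Pou5f1, the neighbours of Dppa3 and Dppa5a, and the ratios were added after values were seen. Alternatives covered the pseudocount, the filter, the scaling, the variance model, covariates, the replicate block and samples left out. Rescaling to a protein-coding sum, and leaving out samples by feeder or Y-linked level, were chosen after seeing the data.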

Additional observations from a re-analysis of the deposited data

How the results depend on the processing

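Of 11949 genes, 895 were called (353 higher, 542 lower), and 4 of the 10 described. Dppa2, Dppa4, Morc1, Sycp1 and Stk31 kept a log2 change below 0 in every alternative that tested them, with Dppa2 between -2.04 and -1.13. Over the alternatives, adjusted p ran from 0.0067 to 0.22 for Dppa2, from 0.0088 to 0.34 for Morc1, from 0.011 to 0.25 for Sycp1, from 0.0083 to 0.25 for Stk31 and from 0.012 to 0.53 for Dppa4. The number of genes called was 2150 with median-of-ratios size factors, 2225 (1456 higher, 769 lower) with a common protein-coding sum, 2203 with all 8 libraries as separate samples and 2752 with array weights, and 5 members were called in each. With TPM, 1092 genes were called higher and 21 lower, and the median of all genes moved to 0.37. The log2 change with TPM was -1.13 for Dppa2, -0.37 for Dppa4, -0.45 for Morc1, -0.54 for Sycp1 and -0.39 for Stk31. Relative to the median of 0.37, Dppa2 was at -1.49, Dppa4 at -0.74, Morc1 at -0.82, Sycp1 at -0.91 and Stk31 at -0.76. No filter called 4 genes over 27108 tested, the feeder marker covariate 4, and the Y-linked covariate 0 (2583 at an unadjusted p below 0.05). In each of these, and with TPM, 0 members were called. A filter at a mean of 5 FPKM left 6221 genes and called 3 members, Dppa2, Dppa4 and Morc1. With a pseudocount of 0.1, 5 members were called.

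Leaving out 1 sample gave between 2 and 1096 called genes and between 0 and 4 called members. Leaving out the samples high in feeder markers gave 16 genes and 0 members, and leaving out those low in Y-linked transcripts 4 genes and 0 members. Same-numbered samples did not deviate together (correlations 0.013, -0.012 and 0.051), so the numbers do not pair them. A replicate block over all 8 libraries called 1 gene and 0 members, with Dppa2 at -2.04 (adjusted p = 0.058). The cause of these changes was not tested.

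The 5 genes that overlapped between groups changed sign in some settings and were called in none. With TPM the log2 change was 0.11 for Dppa3, 0.32 for Dppa5a, 0.20 for Dazl, 0.03 for Ddx4 and 0.14 for Mael. Relative to the TPM median of all genes (0.37) these were -0.26, -0.05, -0.17, -0.34 and -0.23, so on that baseline none changed sign. With the feeder marker covariate it was 0.35 for Dppa5a, 0.36 for Dazl and 0.03 for Mael. With the Y-linked covariate Dppa3 was at 0.03. Array weights gave 0.0093 for Dppa5a and 0.20 for Dazl, and the protein-coding sum 0.04 for Dazl. Without wild-type replicate 1, Dppa3 was at 0.02, Dppa5a at 0.18 and Dazl at 0.05. Without mutator replicate 3, Dppa5a was at 0.13, Dazl at 0.07 and Mael at 0.02. Over all samples left out in turn, the values ran from -0.72 to 0.02 for Dppa3, -0.43 to 0.18 for Dppa5a, -0.27 to 0.07 for Dazl and -0.39 to 0.02 for Mael. Without the samples high in feeder markers, Dppa5a was at 0.15 and Dazl at 0.21. Of 374 counts of called genes per list under the alternatives, 167 were within 1.5 times the count reported and 207 were not. Lists with 0 calls in the reported fit, such as PRC1.6, counted as within wherever they again had 0. The number within is therefore no measure of how stable the calls were.

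The FPKM table gives no depth, so the precision of genes near 1 FPKM, such as Sycp1, Stk31 and Dazl, is known only from the spread between samples. The smallest p that an exact permutation over 4 and 3 samples can give is 0.057.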
